A study of Mus musculus with 6 samples.

Results

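The genes described here are 10 genes of leukocyte adhesion in mouse splenic monocytes, out of 46072 gene identifiers in the deposited tables. They encode the integrin α chains αL, αM, αX and α4 (Itgal, Itgam, Itgax, Itga4), the β chains β2, β1 and β7 (Itgb2, Itgb1, Itgb7), the integrin activator kindlin-3 (Fermt3) and the cytohesins Cyth1 and Cyth4. The set was chosen by name, 1 identifier per gene symbol, and Cyth1 entered it because it had been selected on its rise after vancomycin, so that its difference between the groups is given as a description and was not tested. All 10 genes passed the filter on low counts, and none passed only through the group where it was high, since the lowest library still held 5631 estimated counts of Cyth1 and more of each other gene. Female C57BL/6 mice aged 8 to 10 weeks received 1 mg of vancomycin, an antibiotic that acts mostly within the gut when given by mouth, 2 times a day by gavage for 6 days (Van group, n = 3 mice), or water by the same route (Con group, n = 3 mice). All mice then rested without antibiotic, for 6 to 8 days by the labels and for 8 days by the study's own account of its RNA libraries. CD11b-positive monocytes were then enriched from the spleen with magnetic beads that remove T, B and NK cells and granulocytes, and RNA was taken without stimulation. The study names 3 mice a group for these libraries, and since it combined spleens of a cohort for its cultured monocytes, a library is called a mouse here as far as the labels go. The comparison asks how the resting transcriptome of these cells differed after the antibiotic course. The libraries are of bulk RNA, in which fewer cells of a type and less RNA per cell cannot be told apart.

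Integrins are paired α and β chains at the cell surface. A leukocyte keeps most of them in a folded, weakly binding form until a chemokine or a pattern recognition receptor triggers their activation from inside the cell, when the adaptor talin and kindlin-3 bind the cytoplasmic tail of the β chain. The β2 chain forms LFA-1 with αL, which binds ICAMs and serves crawling and arrest of monocytes on endothelium, Mac-1 with αM (CD11b), which binds ICAM-1, fibrinogen and complement-coated particles, and p150,95 with αX (CD11c). The α4 chain forms VLA-4 with β1, a receptor for VCAM-1 and fibronectin, and with β7 a receptor for MAdCAM-1 on gut vessels. Cytohesins are exchange factors for ARF GTPases, and cytohesin-1 binds the β2 tail and promotes adhesion through LFA-1.

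The libraries held 43.4M to 61.8M estimated counts each, and the first principal component of the log2 CPM values (27.6% of the variance) had the 3 Con libraries on its negative and the 3 Van libraries on its positive side. Markers of monocytes were all detected (10 of 10 tested), with a summed FPKM, a level scaled to transcript length and library size, of 11360 to 11780 in Con and 10530 to 11680 in Van. The summed FPKM of other marker lists was far below, at 13.7 to 17.8 for B cells, 9.48 to 16.4 for T cells, 4.85 to 14.9 for NK cells, 12.4 to 31.99 for neutrophils with Ly6g at 0 in every library, and 52.8 to 80.6 for dendritic cells. For platelets and megakaryocytes it was 11.6 to 24.1 in Con and 11 to 13.7 in Van. That of plasma cells was 169 to 188, mostly from Xbp1, and that of red pulp macrophages 1263 to 1493 in Con and 1490 to 1972 in Van. Erythroid markers stood at 73.1 to 143 in Con and 242 to 545 in Van, with 8 of 8 genes higher and a median log2 fold change of 1.67. Of these 8, 4 were called higher by edgeR (Hbb-bs, Hbb-bt, Hba-a1 and Alas2), against 1.08% of all genes tested. The part of these cells in the results was not tested.

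The genes lie on 7 of the autosomes of GRCm38 and those of the β2 partners stand close together. On chromosome 7, Itgam (from 128062640 to 128118491) is followed after 11055 bases by Itgax (from 128129547 to 128150657), which is followed after 3718 bases by Itgad (from 128154376 to 128223816), the gene of the αD chain. Itgal lies on the same chromosome from 127296260 to 127335138, with 38 protein-coding genes between it and Itgam. Itgb2 is on chromosome 10 from 77530252 to 77565708, Fermt3 on chromosome 19 from 6998958 to 7019469, Itga4 on chromosome 2 from 79255426 to 79333123 and Itgb1 on chromosome 8 from 128685654 to 128733200. Cyth4 (from 78597047 to 78622019) and Itgb7 (from 102215995 to 102231944) are both on chromosome 15, and Cyth1 is on chromosome 11 from 118132019 to 118248592. The exons of Itgam overlap those of the annotated gene Gm49368 on the same strand, which was not analysed here, a stretch of Itgb2 is near-identical to Gm14699, and those of Itga4 and Fermt3 overlap Cerkl and Trpt1 on the opposite strand. Cerkl held 66.5 to 129 counts and Trpt1 30.0 to 70.3 counts per library, against at least 78118 for Itga4 and 14412 for Fermt3.

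In level per length, the set was led by the chains of LFA-1. Itgb2 had a mean of 489 FPKM over the 6 mice (range 459 to 526) and Itgal of 486 FPKM (417 to 560), and their order differed between mice, with Itgb2 above Itgal in 3 of 6. Itgam came next with 192 FPKM (174 to 214), below Itgal in all 6 mice. The 3 chains of the α4 integrins followed, Itga4 at 158 FPKM, Itgb1 at 139 FPKM and Itgb7 at 117 FPKM, and the ranges of each of these neighbours overlapped. Fermt3 was at 101 FPKM (94.996 to 110), Cyth4 at 82.8 FPKM (74.5 to 89.2), Itgax at 73.2 FPKM (64.0 to 82.4) and Cyth1 at 43.0 FPKM (33.2 to 53.5). Fermt3 exceeded Cyth4, and Itgax exceeded Cyth1, without overlap over the mice, whereas the ranges of Cyth4 and Itgax overlapped. With the deposited counts divided by the length of all annotated exons instead, the first 3 places were kept and Cyth4 (36.4 CPM per kb) stood below Cyth1 (40.7), so that the order of these 2 cytohesins depends on how length is set.

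**Figure D1:**
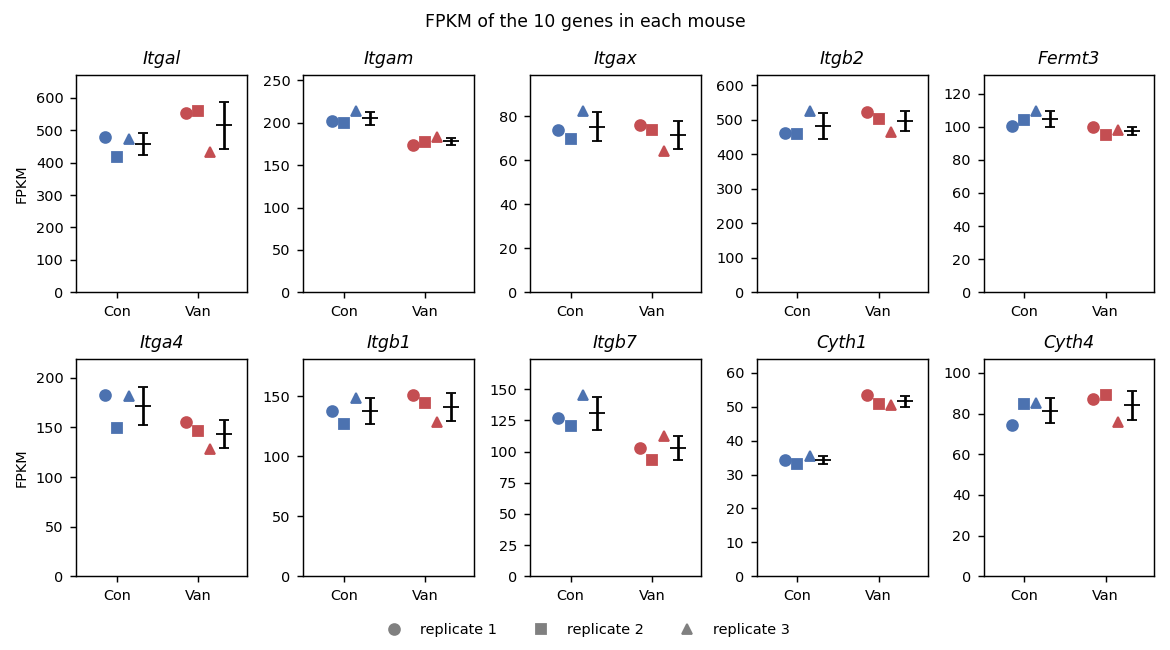
Level in FPKM (y axis, from 0) of each gene in the 3 Con mice (blue) and 3 Van mice (red), with marker shapes for the replicate number and black bars for the mean ± SD. The groups are apart for Cyth1 (33.2 to 35.4 against 50.5 to 53.5 FPKM), Itgam, Itgb7 and Fermt3, and the 6 values interleave for Itgb2, Itgb1, Itgax and Cyth4.

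Between the groups, Cyth1 had the largest log2 fold change of the 10 genes, and among the other 9, none of which passed the adjusted threshold in edgeR, the smallest p-values were those of Itgam and Itgb7, both lower in Van. Cyth1 was at 34.3, 33.2 and 35.4 FPKM in Con replicates 1, 2 and 3, and at 53.5, 50.9 and 50.5 FPKM in Van replicates 1, 2 and 3. Every Van mouse was above every Con mouse, which is the pattern for which the gene was picked. Its log2 fold change was 0.58 (standard error, SE, 0.06) and it ranged from 0.55 to 0.60 over 16 alternative fits. Of the other 9 genes, 0 were called, which means a Benjamini-Hochberg adjusted p not above 0.05 in the quasi-likelihood test of edgeR, against 2.00% of the 16138 genes tested. At an unadjusted p under 0.05 there were 4 of 9, 1 of them higher and 3 lower in Van, against 16.5% of all genes. DESeq2's Wald test called 2 of the 9, Itgam and Itgb7, both lower, against 7.36% of the 13063 genes to which it gave an adjusted p. Limma on log2(FPKM + 1) called 0 of the 9, against 0.243% of 16057 genes. The Con and Van values did not overlap in CPM, which are counts relative to the scaled library total, for 3 of 9 genes, against 22.5% of all genes. The median log2 fold change of the 9 genes was -0.09 and that of all genes tested -0.0014.

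Among the β2 integrin genes, the values pointed in different directions for the different α chains, with Itgam lower, Itgal mostly higher and Itgb2 and Itgax interleaved. Itgam, the gene of the CD11b antigen by which the study describes its monocytes, was at 202, 200.1 and 214 FPKM in Con and at 174, 178 and 183 FPKM in Van. All 3 Van mice were below all 3 Con mice. The log2 fold change was -0.21 (SE 0.05, adjusted p = 0.0741 from edgeR), and its sign held in all 16 alternatives, in which the adjusted p went from 0.00236 with DESeq2 to 0.258 without Van replicate 2. Itgal was at 480.3, 417 and 472 FPKM in Con and at 553, 560 and 431 FPKM in Van. Van replicates 1 and 2 were above all Con mice and Van replicate 3 was within their range, so that the difference (log2 fold change 0.25, SE 0.10, adjusted p = 0.263 from edgeR) went from 0.16 without Van replicate 1 to 0.32 without Van replicate 3. Itgax was at 73.7, 69.5 and 82.4 FPKM in Con and at 75.9, 73.7 and 64.0 FPKM in Van (log2 fold change -0.09, SE 0.08, adjusted p = 0.66 from edgeR), with a log2 fold change of -0.14 without Van replicate 1 and of -0.02 without Van replicate 3. Itgb2, the shared partner, was at 463, 459 and 526 FPKM in Con and at 522, 501 and 466 FPKM in Van (log2 fold change 0.04, SE 0.07, adjusted p = 0.861 from edgeR), and its sign turned without Van replicate 1. For both genes the groups overlapped.

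Among the α chains that can pair with β2, Itgal had the greatest share in every mouse. Itgal supplied 60.4%, 56.9% and 57.9% of the summed FPKM of Itgal, Itgam, Itgax and Itgad in Con and 64.9%, 63.8% and 59.0% in Van. For Itgam the share was 25.4%, 27.3% and 26.3% in Con and 20.4%, 20.3% and 25.0% in Van. The ratio of Itgal to Itgam was 2.22 ± 0.15 in Con and 2.90 ± 0.47 in Van (SD, n = 3 mice each), with Van replicate 3 at 2.36, just below the highest Con mouse at 2.38. Itgb2 amounted to 0.618 ± 0.0323 of the summed FPKM of its 4 α chains in Con and 0.607 ± 0.0332 in Van, a difference smaller than the spread between mice. These shares are sums over the same genes as above and were not tested.

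Of the 10 monocyte markers, which include genes that separate monocyte subsets, 4 had an unadjusted p under 0.05 from edgeR, against 16.5% of all genes. Only 1 was called, against 2.00% of all genes. Ccr2, the chemokine receptor of classical Ly6C-high monocytes, fell from 165 ± 7.56 to 87.2 ± 14.8 FPKM (log2 fold change -0.83, adjusted p = 0.0283 from edgeR). Ly6c2, the antigen that names that subset, was at 398, 414 and 377 FPKM in Con and at 268, 293 and 388 FPKM in Van (log2 fold change -0.34, adjusted p = 0.24 from edgeR). Treml4, a gene of Ly6C-low monocytes, was at 221, 214 and 237 FPKM in Con and at 283, 256 and 233 FPKM in Van (log2 fold change 0.19, adjusted p = 0.256 from edgeR). Fcgr4, another such gene, was at 145, 111 and 140 FPKM in Con and at 215, 171 and 143 FPKM in Van (log2 fold change 0.41, adjusted p = 0.222 from edgeR). Van replicate 3, which had the lowest Itgal of the Van mice, also had the highest Ly6c2 and the lowest Treml4 and Fcgr4 among them. The pattern is not particular to Itgal. In FPKM the same mouse was also the lowest Van mouse for Itgax, Itgb2, Itga4, Itgb1, Cyth1 and Cyth4, and the highest for Itgam and Itgb7. Cx3cr1, which Ly6C-low monocytes carry at a high level, was lower in Van, at 116, 125 and 118 FPKM in Con and at 113, 117 and 91.5 FPKM in Van (log2 fold change -0.17, adjusted p = 0.372 from edgeR). Nr4a1, the transcription factor on which Ly6C-low monocytes depend, had a log2 fold change of 0.11, Cebpb of 0.09 and Ace of 0.19. Apart from Ccr2, each of these genes overlapped between the groups in FPKM, while in CPM Treml4 was higher and Cx3cr1 lower in Van without overlap. The part of the monocyte subsets in the values of Itgal and Itgam was not tested.

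**Figure D2:**
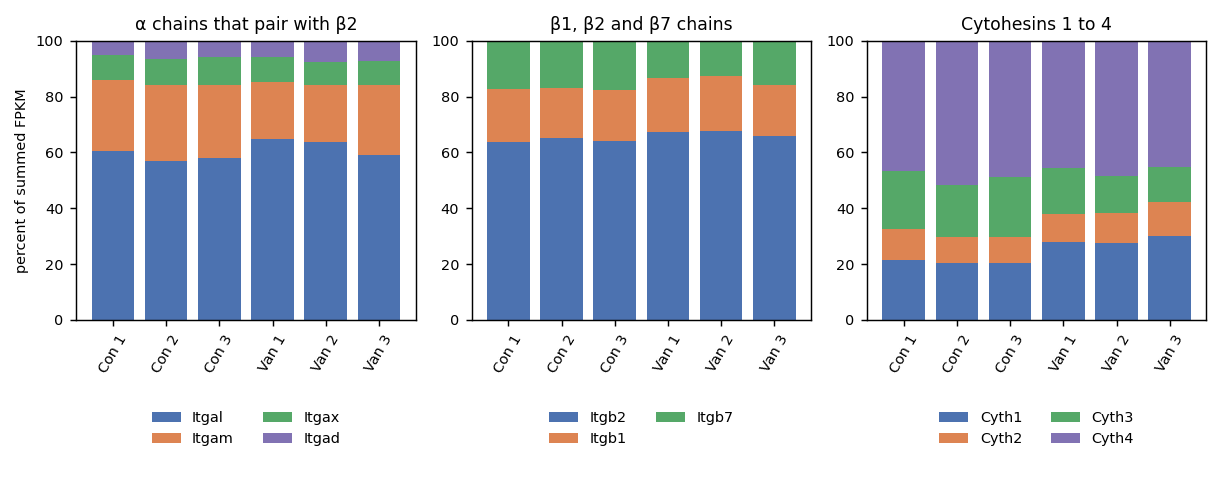
Share of the summed FPKM (y axis, percent) in each mouse taken by the 4 α chains that pair with β2, by the 3 β chains and by the 4 cytohesins. Itgal takes 56.9% to 60.4% of the α chains in Con and 59.0% to 64.9% in Van, Itgb7 17.0% to 17.7% of the β chains in Con and 12.6% to 15.96% in Van, and Cyth1 20.2% to 21.4% of the cytohesins in Con and 27.6% to 30.0% in Van.

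Of the α4 integrin genes, Itgb7 and Itga4 were lower in Van, although neither passed the adjusted threshold, while Itgb1 differed by less than its standard error. Itgb7 was at 127, 120.2 and 146 FPKM in Con and at 103, 93.3 and 113 FPKM in Van. The Van mice were all below the Con mice, and the log2 fold change of -0.35 (SE 0.09, adjusted p = 0.10 from edgeR) was the lowest of the 10 genes. It ranged from -0.43 without Van replicate 3 to -0.27 without Van replicate 2, and its adjusted p from 0.00684 with DESeq2 to 0.29 without Van replicate 2. Itga4 was at 183, 149.9 and 182 FPKM in Con and at 156, 147 and 128 FPKM in Van. Con replicate 2 fell within the range of the Van mice (log2 fold change -0.27, SE 0.10, adjusted p = 0.224 from edgeR). Itgb1 was at 138, 127 and 149 FPKM in Con and at 151, 144 and 128 FPKM in Van, a log2 fold change of 0.03 (SE 0.08, adjusted p = 0.916 from edgeR) whose sign changed in 4 of the 16 alternatives. The ratio of Itga4 to Itgb1, the chains of VLA-4, was 1.33, 1.18 and 1.23 in Con and 1.03, 1.02 and 0.996 in Van, without overlap. That of Itga4 to Itgb7 was 1.31 ± 0.112 in Con and 1.41 ± 0.238 in Van (SD, n = 3 mice each), and the mice overlapped. Both are among several ratios formed from these genes, and neither was tested. For scale, the groups did not overlap in CPM for 22.5% of all single genes. Itgb7 supplied 17.4 ± 0.348% of the summed FPKM of the 3 β chains in Con and 14.0 ± 1.77% in Van.

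Lymphocytes, which the beads are meant to remove, and dendritic cells also carry α4 and β7. Their markers were low, and most had a negative log2 fold change but few were called. The T cell and the dendritic cell sums overlapped between the groups. The NK list, of which 5 of 8 genes were tested, had a summed FPKM of 10.4 to 14.9 in Con and 4.85 to 8.30 in Van. Of its tested genes 1 was called, Klrk1 (lower), against 2.00% of all genes. Klrk1 alone gave 11.1 ± 2.26 FPKM of the sum in Con and 5.47 ± 1.74 FPKM in Van, and Ncr1, Prf1 and Gzma were each below 0.4 FPKM in every library. For the T cell list the sums were 12.5 to 16.4 in Con and 9.48 to 13.5 in Van with 0 of 7 genes called, and Cd4 made up most of them (9.88 ± 1.41 FPKM in Con and 8.09 ± 1.71 FPKM in Van). The sums of the B cell list were 16.3 to 17.8 in Con and 13.7 to 15.3 in Van with 0 of 7 called. At an unadjusted p under 0.05 from edgeR there was 1 gene in each of these 2 lists. In the dendritic cell list the sums were 64.9 to 80.6 in Con and 52.8 to 67.2 in Van. Of its 8 genes, 7 were lower and 1 was called, Clec9a, against 2.00% of all genes. At an unadjusted p under 0.05 from edgeR there were 5 of these 8 genes, against 16.5% of all genes, namely Xcr1, Clec9a, Siglech and Batf3, which were lower, and Flt3, which was higher (log2 fold change 0.25). The part of these cells in the values of Itgb7, Itga4 and Itgax was not tested.

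Fermt3, the kindlin of blood cells, was at 100.2, 104 and 110 FPKM in Con and at 99.7, 94.996 and 98.2 FPKM in Van. The groups were apart by less than 1 FPKM, and the difference was small (log2 fold change -0.11, SE 0.05, adjusted p = 0.371 from edgeR), with a range of -0.13 to -0.08 over the fits that left out 1 mouse. The other kindlins were near absent, with Fermt1 at 0 in every library and Fermt2 at 0.125 ± 0.0656 FPKM in Con and 0.068 ± 0.041 FPKM in Van (SD, n = 3 mice each).

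Within the cytohesin family, the messenger RNA of Cyth4, the form typical of blood cells, was the most abundant by FPKM and did not differ beyond its error. It was at 74.5, 85.0 and 85.0 FPKM in Con and at 87.0, 89.2 and 75.9 FPKM in Van (log2 fold change 0.03, SE 0.08, adjusted p = 0.885 from edgeR), with the opposite sign without Con replicate 1. Cyth2, which is broadly expressed, was at 17.7, 15.8 and 16.2 FPKM in Con and at 18.9, 19.8 and 20.7 FPKM in Van (log2 fold change 0.27, SE 0.07, adjusted p = 0.104 from edgeR). Cyth3 went the other way, from 33.7, 30.1 and 36.9 FPKM in Con to 31.5, 24.2 and 21.1 FPKM in Van (log2 fold change -0.41, SE 0.14, adjusted p = 0.186 from edgeR). DESeq2 called both, with adjusted p-values of 0.0244 and 0.0365. The share of Cyth1 in the summed FPKM of the family was 20.7 ± 0.656% in Con and 28.6 ± 1.28% in Van, that of Cyth3 20.2 ± 1.62% and 14.1 ± 2.13%, and that of Cyth4 49.1 ± 2.64% and 46.4 ± 1.82% (SD, n = 3 mice each). The rise for which Cyth1 was selected itself raises its share and lowers those of the others, so that the shares add nothing to the FPKM of each gene. The sum itself was 166 ± 6.84 FPKM in Con and 181 ± 11.7 FPKM in Van, with the groups overlapping.

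**Figure D3:**
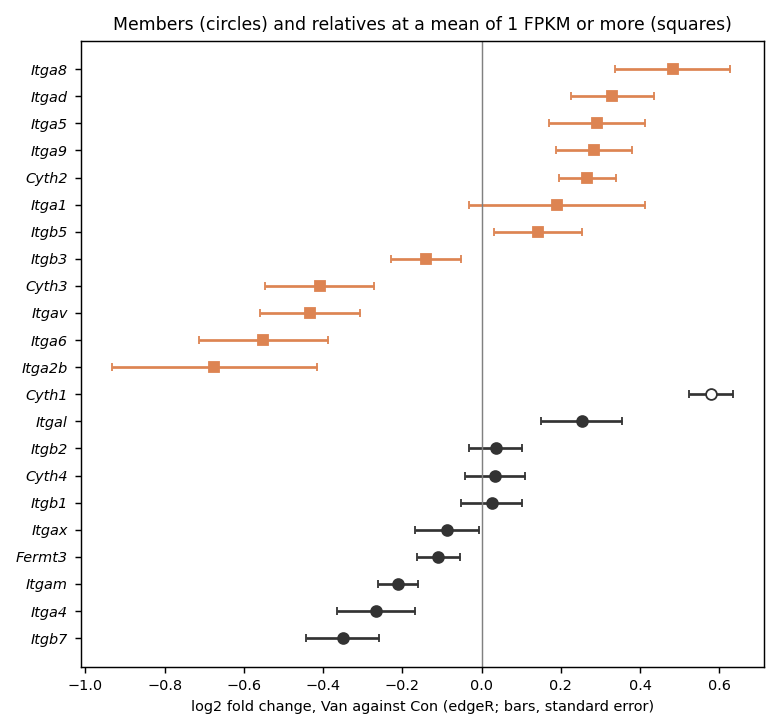
Log2 fold change of Van against Con from edgeR (x axis, bars for the standard error) of the 10 genes (circles, Cyth1 open since it was picked for its rise) and of other integrin and cytohesin genes at a mean of at least 1 FPKM (squares). Cyth1 (0.58) and Itgal (0.25) lie to the right, Itgam (-0.21), Itga4 (-0.27) and Itgb7 (-0.35) to the left, and Itgb2, Cyth4 and Itgb1 have bars that cross 0.

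Of the other 20 integrin subunits, 15 were tested and 8 had an unadjusted p under 0.05 from edgeR, against 16.5% of all genes. DESeq2 called Itgav, Itgad and Itga6 (adjusted p = 0.0115, 0.0334 and 0.0462), against 7.36% of the genes to which it gave an adjusted p. The 1 gene called by edgeR, against 2.00% of all genes, was Itga2, the collagen-binding α2 chain. Itga2 held 15.5 to 25.8 counts per library in Con and was at 0 in all 3 Van libraries, so that it passed the filter only through Con and had to differ. Its call was lost in each fit that left out 1 mouse (adjusted p of 0.0699 to 0.144 from edgeR). Itgad, the neighbour of Itgax that is typical of splenic red pulp macrophages, was at 39.4, 46.6 and 46.6 FPKM in Con and at 49.3, 65.9 and 52.7 FPKM in Van (log2 fold change 0.33, SE 0.10, adjusted p = 0.165 from edgeR). All 8 markers of these macrophages had a positive log2 fold change, edgeR called 0 of 8 and gave 6 an unadjusted p under 0.05 (16.5% of all genes), DESeq2 called Vcam1 among them, and their part in the value of Itgad was not tested. Itgav, the αV chain of vitronectin receptors, was at 20.6 ± 2.84 FPKM in Con and 15.6 ± 2.27 FPKM in Van (log2 fold change -0.43, adjusted p = 0.131 from edgeR). Itgb5, the gene of a partner of αV, was at 48.2 ± 5.82 and 53.6 ± 7.69 FPKM (0.14, adjusted p = 0.592 from edgeR). Of the partners of β1, the laminin-binding Itga6 was at 2.28 ± 0.332 and 1.54 ± 0.393 FPKM (-0.55, adjusted p = 0.138), the fibronectin-binding Itga5 at 13.9 ± 1.32 and 17.1 ± 2.72 FPKM (0.29, adjusted p = 0.281), and Itga9 at 9.02 ± 1.19 and 11.03 ± 1.04 FPKM (0.28, adjusted p = 0.187). Itga8 had a log2 fold change of 0.48 and Itga1 of 0.19. Itga2b, the platelet α chain, and Itgb3 had log2 fold changes of -0.67 and -0.14. Of the 8 platelet and megakaryocyte markers, among them Itga2b itself, 7 had a negative log2 fold change (median -0.57) and 0 were called, 2 having an unadjusted p under 0.05 from edgeR, and their part in the value of Itga2b was not tested. The remaining subunits were below 1 FPKM.

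The genes around the integrins were compared through 6 lists of relatives, activators, signalling partners and ligands, with 91 of 101 genes tested. Of these, 2 were called higher and 2 lower in Van, against 1.08% and 0.917% of all genes tested, and their median log2 fold change was -0.04. One of the lower genes is Itga2, and with at least 10 counts required in every library 3 partners were called. DESeq2 called 14, of which 6 were higher, against 7.36% of all the genes to which it gave an adjusted p. The ARF GTPases and cytohesin partners had 0 of 13 genes called and 0 at an unadjusted p under 0.05 from edgeR, against 2.00% and 16.5% of all genes. DESeq2 called none of them. Arf6, a GTPase that cytohesins load with GTP, was at 44.0 ± 2.55 FPKM in Con and 48.5 ± 1.91 FPKM in Van (log2 fold change 0.13, adjusted p = 0.315 from edgeR). Cytip, a protein that binds cytohesin-1 and removes it from the membrane, was at 196 ± 6.09 and 185 ± 23.7 FPKM, chosen after its values were seen. Frmd4a and Frmd4b, scaffolds of cytohesins, had log2 fold changes of -0.18 and -0.17.

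In the inside-out activation list, 0 of 22 genes were called by edgeR or DESeq2. An unadjusted p under 0.05 from edgeR was given to 2, against 16.5% of all genes, and 16 of 22 had a negative log2 fold change. Stk4, the kinase Mst1 that acts on LFA-1 through Rap1 and RAPL, was at 64.3 ± 1.04 FPKM in Con and 58.2 ± 1.15 FPKM in Van (log2 fold change -0.14, adjusted p = 0.209 from edgeR). Rasgrp2, the exchange factor of Rap1 in blood cells, was at 109 ± 13.2 and 132 ± 4.91 FPKM (0.20, adjusted p = 0.262). Apbb1ip, the Rap1 effector RIAM that brings talin to integrins, was at 125 ± 11.8 and 113 ± 5.05 FPKM (-0.16, adjusted p = 0.309).

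Of 24 tested genes of outside-in signalling and the adhesion complex, 11 had an unadjusted p under 0.05 from edgeR, against 16.5% of all genes. Only 1 was called, against 2.00% of all genes. Lims1, the adaptor PINCH-1 that holds integrin-linked kinase at adhesions, fell from 45.7, 48.2 and 49.5 FPKM in Con to 38.4, 38.0 and 38.7 FPKM in Van (log2 fold change -0.33, SE 0.05, adjusted p = 0.0277 from edgeR). The Van mice were all below the Con mice, but among the fits that left out 1 mouse the call held only without Con replicate 1, with adjusted p-values from 0.0437 to 0.129. Ptk2b, the adhesion kinase Pyk2, was at 153 ± 11.5 FPKM in Con and 119 ± 13.7 FPKM in Van (log2 fold change -0.35, adjusted p = 0.0858 from edgeR), and Arhgef6, an exchange factor for Rac bound by parvins, at 34.3 ± 3.04 and 28.4 ± 2.61 FPKM (-0.32, adjusted p = 0.0867). DESeq2 called both. Of the 24 genes, 10 had a positive and 14 a negative log2 fold change, and 5 were higher and 7 lower in Van without overlap in CPM, against 22.5% of all genes in either direction. DESeq2 also called Vav3, a Rac exchange factor, which was lower (-0.27), and Pxn, the adhesion scaffold paxillin, which was higher (73.4 ± 0.397 FPKM in Con and 82.5 ± 2.03 FPKM in Van, log2 fold change 0.17, DESeq2 adjusted p = 0.0277). The others that were higher without overlap were Zyx, Actn4, Lyn and Vav1, with log2 fold changes of 0.08 to 0.15, and the others that were lower without overlap were Vcl (-0.30), Src (-0.25) and Arhgef7 (-0.16), none of them called by either tool. These 9 genes were chosen after their values were seen.

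Among ligands and other adhesion receptors, 6 of 14 tested genes had an unadjusted p under 0.05 from edgeR, against 16.5% of all genes. Without overlap in CPM, 5 were higher and 2 lower in Van, against 22.5% of all genes in either direction. Of the 14 genes, 2 were called, against 2.00% of all genes. F11r, which encodes JAM-A, a junctional protein and ligand of LFA-1, rose from 4.36, 4.31 and 4.02 FPKM in Con to 6.44, 7.05 and 6.47 FPKM in Van (log2 fold change 0.65, SE 0.08, adjusted p = 0.0131 from edgeR). Pecam1, which encodes the homophilic adhesion receptor CD31, rose from 16.3, 12.6 and 15.8 FPKM to 44.0, 31.2 and 24.2 FPKM (log2 fold change 1.14, SE 0.19, adjusted p = 0.0308 from edgeR). In both genes all Van mice were above all Con mice. The call of F11r was lost without Con replicate 2, Con replicate 3 or Van replicate 2, with an adjusted p of at most 0.0814, and that of Pecam1 without any of the Con replicates or Van replicate 2, with an adjusted p of at most 0.129. Vcam1, the ligand of VLA-4 and also a marker of red pulp macrophages, was at 152 ± 18.0 FPKM in Con and 210 ± 25.4 FPKM in Van (log2 fold change 0.46, adjusted p = 0.0621 from edgeR), and DESeq2 called it. Thy1, an adhesion molecule of T cells that Mac-1 can bind, was at 1.69 ± 0.297 FPKM in Con and 0.785 ± 0.239 FPKM in Van (log2 fold change -1.12, adjusted p = 0.0771 from edgeR and 0.00728 from DESeq2), and was chosen after its values were seen. In all, 6 of the 14 genes had a positive and 8 a negative log2 fold change.

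**Figure D4:**
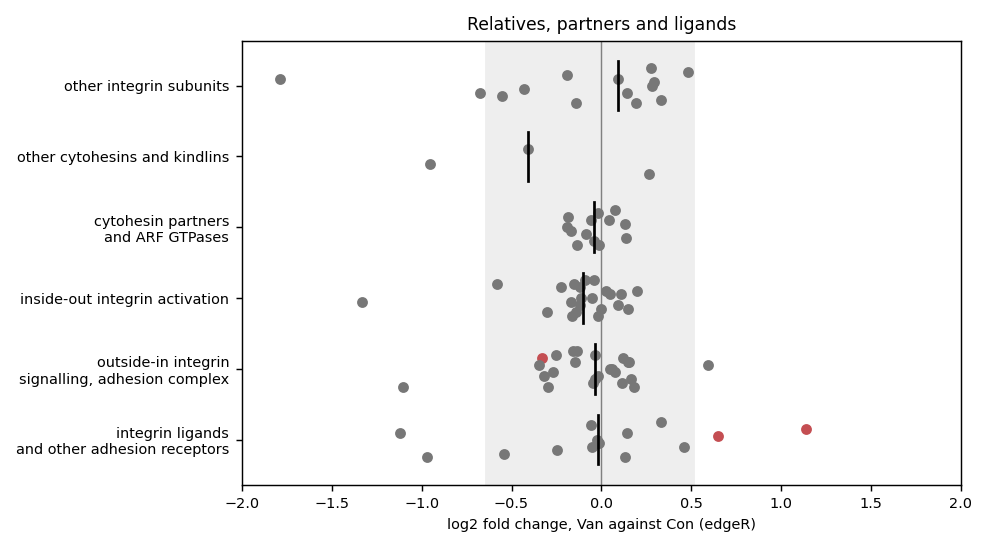
Log2 fold change of Van against Con from edgeR (x axis) of each tested gene in 6 lists (rows), with called genes in red, the median of a list as a black bar and the middle 90% of all genes tested (-0.643 to 0.514) shaded. Lims1 on the left and F11r and Pecam1 on the right are the called genes within the axis, and Itga2, which has no counts in Van, lies outside it.

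By Pearson correlation of log2 CPM over the 6 libraries, among 8486 other genes at a mean of at least 10 CPM, the 5 genes most alike Cyth1 were Pnpla6 (r = 0.996), a phospholipase, Map1s (0.993), a microtubule-binding protein, Nfix (0.993), a transcription factor, Clcf1 (0.993), a cytokine, and Ubqln1 (0.992), a ubiquitin-binding protein. Their Spearman rho was 0.886 to 0.943. The Cyth1 values form 2 separate clusters, the Con and the Van mice, so that any gene with a tight difference between the groups ranks high. For Itgb2, whose groups interleave, the leading 4 were Hexim1 (r = 0.996), Sept2 (0.993), Ripk1 (0.991) and Mapkap1 (0.97), with a Spearman rho of 0.771 to 1. With 6 libraries and this many genes compared, such values are descriptions without a test.

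**Figure D5:**
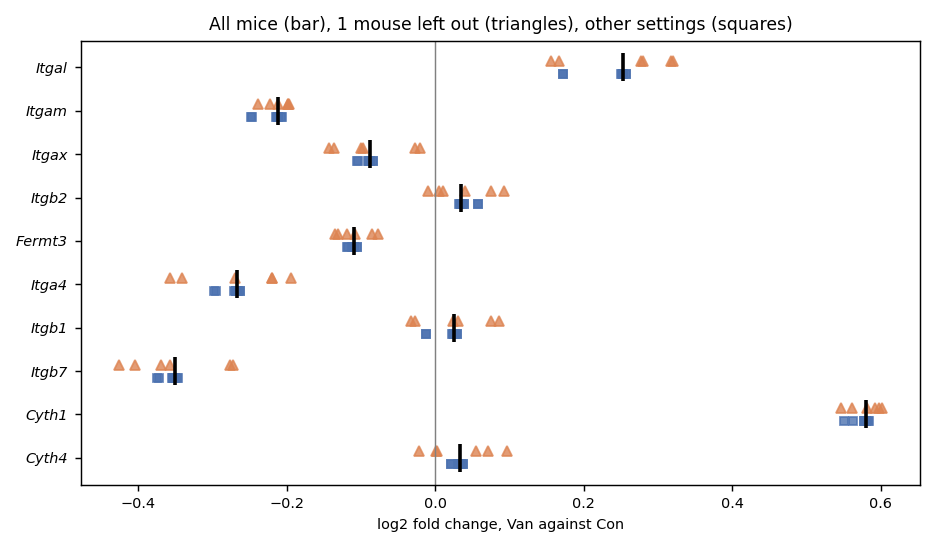
Log2 fold change of Van against Con (x axis) of each gene with all 6 mice (black bar), with 1 mouse left out (orange triangles) and under the other settings (blue squares). Itgal, Itgam, Itgax, Fermt3, Itga4, Itgb7 and Cyth1 keep their sign throughout, and Itgb2, Itgb1 and Cyth4 cross 0. Cyth1 had been picked for its rise in these same libraries.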

How the data were processed

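RNA from splenic monocytes of 3 Con and 3 Van mice was analysed, 1 library per mouse. Libraries of the VanLip group are not analysed here. Treatment, rather than the deposit named in the paper, which is a different one, links the libraries to its groups. The authors aligned reads to GRCm38 with HISAT2 2.2.1, used SAMtools 1.9, and made FPKM values with StringTie 2.1.3 and Ballgown. The authors converted these with tximport to estimated counts, deposited without scaling to library size. The annotation release and the use of strand and of multiply aligned reads are not given in the sources used here.

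Counts were rounded and tested in R 4.3.3 with edgeR 4.0.16 (TMM, expression filter at a minimum count of 10, quasi-likelihood test, group as the only term), with Benjamini-Hochberg adjustment across 16138 genes and a gene was called where the adjusted p did not exceed 0.05. The standard error is the log2 fold change divided by the root of the F statistic. Levels are FPKM as deposited. An exact permutation test of 3 against 3 cannot go below 0.10 (two-sided) and was not used. Libraries of 1 group differed by a chi-square of 20.5 to 42.8 per gene, so none was a copy. The p-values set the difference between the groups against the spread between these mice, which the tools estimate partly from other genes. The study does not say which of these mice shared a cage.

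Alternatives were DESeq2 1.42.0, RLE or library size scaling, other filters, the replicate number as a block, limma 3.58.1 for 16057 of these genes on FPKM after log2 transformation with a pseudocount of 1 or 0.1 and quantile normalization, 1 identifier per symbol, counts multiplied by 3/8 (an estimate of fragments, since the conversion rests on an assumed read length), and each mouse left out. Positions and exon lengths are from GENCODE M21 (98% of identifiers matched). Overlap means shared exon bases. The scripts were tested on data simulated from edgeR's own fit, with 200 genes changed. There edgeR made 130 calls, 7 of them false, DESeq2 170 with 33 false, and limma 117 with 3 false.

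The members and lists were chosen with earlier results of these data known. Named are the 10 genes, relatives at a mean of at least 1 FPKM or called, in each other list the called genes and up to 3 with the smallest p, and the 5 genes most alike Cyth1 and Itgb2, of which 1 for Itgb2 is not reported here. Marker genes were named to describe the cells, and Cytip, Thy1, Pxn, Zyx, Actn4, Lyn, Vav1, Vav3, Vcl, Src and Arhgef7 after their values were seen.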

Additional observations from a re-analysis of the deposited data

How the results depend on the processing

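Over the 16 alternatives, the log2 fold changes of Itgal, Itgam, Itgax, Fermt3, Itga4 and Itgb7 kept their sign. So did that of Cyth1, which was picked for its rise in these same libraries. That of Itgb1 was -0.012 with limma on either FPKM scale, and with 1 mouse left out it ranged from -0.033 to 0.086, that of Cyth4 from -0.022 to 0.097 and that of Itgb2 from -0.010 to 0.093. DESeq2 called 2 of the 9 genes other than Cyth1, 14 of the listed partners and 962 genes in all, against 0, 4 and 322 with edgeR. Limma called 39 genes in all and 1 partner on log2(FPKM + 1) values, and 4 and 0 on log2(FPKM + 0.1) values. With 1 mouse left out, 21 to 136 genes and 0 to 4 partners were called, with 0 partners without Con replicate 2, Con replicate 3 or Van replicate 2. With the replicate number as a block, 110 genes were called in all. Same-numbered libraries did not deviate together (correlations of 0.0253, -0.00192 and -0.0726 for replicates 1, 2 and 3), and 1 of 6 libraries correlated best with its own number. Under the block 0 of the 9 genes other than Cyth1 were called, as without it, and 4 partners were called, F11r, Pecam1, Itgav and Vcam1, while Lims1 and Itga2 were not (adjusted p = 0.0779 and 0.107 from edgeR). Ranked by counts per kb of exon, 3 of the 10 genes kept their place. The cause of these differences was not tested. Each of the 10 genes held at least 5631 counts in every library, while Itga2 held at most 25.8.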
